A study of Homo sapiens with 18 samples.

Results

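The interaction of decitabine and panobinostat in U937 cells is, for each gene, the log2 level with both agents minus the level with decitabine alone, minus the level with panobinostat alone, plus the level in untreated cells. It is 0 where the change with both agents equals the sum of the changes with each agent alone, and 1 where the combination lies 2-fold above that sum. It was computed from 12 of the 18 arrays of the series, 3 in each of 4 groups, over 14884 genes, 11915 of them protein coding. U937 is an established human line of monocytic cells derived from a histiocytic lymphoma. The control cells carried the label ctrl and no drug number. The decitabine group (5-aza-2´-deoxycytidine, label D50) received 3 pulses of 24 h. The panobinostat group (P8) had the deacetylase inhibitor alone for 24 h. The combination group (D50P8) had it for 24 h with the last pulse of decitabine. The remaining 6 arrays hold valproic acid alone (V1) and valproic acid with decitabine (D50V1), each with 24 h of valproic acid. No unit is given for the 50, 8 and 1. All groups share the cell line and an RPMI medium with fetal calf serum. The labels do not say whether replicate arrays stand for independent cultures, so the p-values measure the spread between arrays, which may be technical.

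Decitabine is a cytidine analog that is built into DNA during replication, traps the maintenance DNA methyltransferase and leaves newly made strands with less CpG methylation. Panobinostat is a hydroxamic acid that inhibits most zinc-dependent histone deacetylases, so that acetyl groups build up on histones and other proteins. Both kinds of drug release silenced genes, and their joint use in myeloid leukemia rests on the idea that methylation and deacetylation silence the same promoters in layers.

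Levels are RMA values on the log2 scale as deposited, 1 probe set per gene. They ran from 2.29 to 14.57 with array medians of 3.81 to 3.87, and the table holds no detection calls, so a level near 3.8 cannot be told from background and folds from such a level are compressed. Arrays of the same group correlated at 0.989 to 0.992 over all genes and arrays of different groups at 0.961 to 0.985. Of 9 markers fixed for U937 cells, the 4 measured (SPI1, CD4, LYZ and MPO) all lay above the gene median in the control arrays, and their summed log2 level was 36.2 to 36.4 in control, 37.9 to 38.6 with decitabine, 36.6 to 36.8 with panobinostat and 36.3 to 37.3 with both. Of the markers of other cells, 3 of 4 epithelial genes (EPCAM, KRT8 and KRT19), DCN for fibroblasts and CD2 for T cells were measured and lay below the gene median in control, KLF1 for erythroid cells read 4.32 to 4.74 and PAX5 for B cells 4.90 to 5.07. CD2 stood at 3.75 to 4.16 in control and 5.63 to 5.96 with both agents, and its part in any result was not tested. In bulk RNA, more cells of a state and more RNA per cell cannot be told apart.

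The promoters of the genes with the highest and lowest interactions are printed here because decitabine acts on CG dinucleotides (CpG). Each is the 250 bases before the gene start in RefSeq (build GRCh38.p14), 5′ to 3′ on the strand of the gene, with CG in capitals. Entries were at hand for 41 of the 50 genes called higher, 36 of the 43 called lower and 10749 of the 14884 tested. The 4 highest interactions with an entry belong to CXCL11 (chr4:76036071-76036320, minus strand), DHRS2 (chr14:23629865-23630114, plus strand), TJP3 (chr19:3708134-3708383, plus strand) and DPPA3 (chr12:7711183-7711432, plus strand).
CXCL11: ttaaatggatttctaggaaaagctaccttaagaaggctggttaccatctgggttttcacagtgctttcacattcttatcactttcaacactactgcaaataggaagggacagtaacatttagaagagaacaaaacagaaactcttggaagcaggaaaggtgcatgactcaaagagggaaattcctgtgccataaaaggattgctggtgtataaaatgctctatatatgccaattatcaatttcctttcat
DHRS2: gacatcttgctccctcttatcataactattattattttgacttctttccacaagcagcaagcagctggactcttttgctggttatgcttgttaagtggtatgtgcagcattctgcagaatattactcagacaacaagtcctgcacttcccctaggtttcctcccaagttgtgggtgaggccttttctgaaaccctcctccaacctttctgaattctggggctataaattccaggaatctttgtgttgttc
TJP3: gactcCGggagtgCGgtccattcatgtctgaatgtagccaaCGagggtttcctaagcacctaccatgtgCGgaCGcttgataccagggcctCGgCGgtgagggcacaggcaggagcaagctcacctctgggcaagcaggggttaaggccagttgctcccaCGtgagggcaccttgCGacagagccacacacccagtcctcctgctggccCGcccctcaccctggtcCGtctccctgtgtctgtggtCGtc
DPPA3: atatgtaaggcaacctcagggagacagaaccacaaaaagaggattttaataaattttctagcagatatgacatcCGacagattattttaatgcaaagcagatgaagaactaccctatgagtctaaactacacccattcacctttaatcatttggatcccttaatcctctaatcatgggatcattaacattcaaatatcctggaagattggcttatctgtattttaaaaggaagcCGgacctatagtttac
The stretches of CXCL11 and DHRS2 hold 0 CG and that of DPPA3 holds 2, while that of TJP3 holds 12. The 2 lowest interactions belong to ANKRD22 (chr10:88851845-88852094, minus strand), with 4 CG, and PRTN3 (chr19:840749-840998, plus strand), with 6.
ANKRD22: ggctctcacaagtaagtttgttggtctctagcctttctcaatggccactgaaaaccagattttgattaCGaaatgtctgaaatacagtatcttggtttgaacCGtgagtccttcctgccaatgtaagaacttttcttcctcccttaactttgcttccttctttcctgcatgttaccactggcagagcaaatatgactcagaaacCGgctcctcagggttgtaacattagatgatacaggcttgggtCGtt
PRTN3: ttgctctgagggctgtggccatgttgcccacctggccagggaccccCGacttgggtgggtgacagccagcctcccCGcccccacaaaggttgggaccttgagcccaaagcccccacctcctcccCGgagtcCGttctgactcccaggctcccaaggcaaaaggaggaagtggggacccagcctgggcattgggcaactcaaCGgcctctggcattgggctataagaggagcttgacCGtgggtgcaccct
Over all promoters with an entry the median was 18 CG, and each of these 6 promoters holds fewer.

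The interaction passed the test (limma, adjusted p under 0.05 over all genes) in 93 genes, which is 0.625% of those tested. It was higher than additive in 50 genes (0.336%) and lower in 43 (0.289%), and 75 genes (0.504%) reached 2-fold, 44 of them higher and 31 lower. Each agent and their combination moved far more genes against control: 590 (3.96%) with decitabine, 1100 (7.39%) with panobinostat and 3447 (23.2%) with both. Of the 3447 genes that the combination changed, 76 had a called interaction and 3371 did not. A p that misses the threshold does not show additivity: the interaction had a median standard error of 0.22 against 0.155 for a change between 2 groups, and the smallest interaction called was 0.68. Of the 14884 genes tested, 1562 had an unadjusted p under 0.05 for the interaction, a threshold that some genes pass by chance alone. The call depends on single arrays: with 1 array left out, 46 to 98 genes were called, the fewest without control array 3 (46), control array 2 (50), combination array 3 (59), decitabine array 3 (60) and decitabine array 2 (61), and 40 of the 93 passed in each of the 12 fits.

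The called genes fell into a few shapes, sorted here by point estimates. Among the 50 higher genes, 44 stood above both single agents and above their sum, with a median change against control of 1.93 where the sum was 0.34. The other 6 fell less with both agents than the sum of the single falls, at a median of −0.44 against −1.83. Among the 43 lower genes, 26 stood above control by less than the sum, at a median of 1.25 against 2.74. Another 16 lay below both single agents and below the sum, at a median of −0.53 against 0.55, and PRTN3 had none of these shapes. On the linear scale, where signals rather than logs add, all 50 and all 43 genes kept their direction. That outcome is fixed by arithmetic for higher genes whose 2 single changes share a sign. It is fixed as well for all 44 that stood above both single agents and the sum. For lower genes it is fixed where the single changes have opposite signs, as in PRTN3. It is also fixed where both agents raised the gene and the combination lay no higher than the larger single change. Of the 26 lower genes above control, 18 had a combination estimate no higher than that change, and their direction was fixed. For all such genes the linear scale is no separate check.

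**Figure D1:**
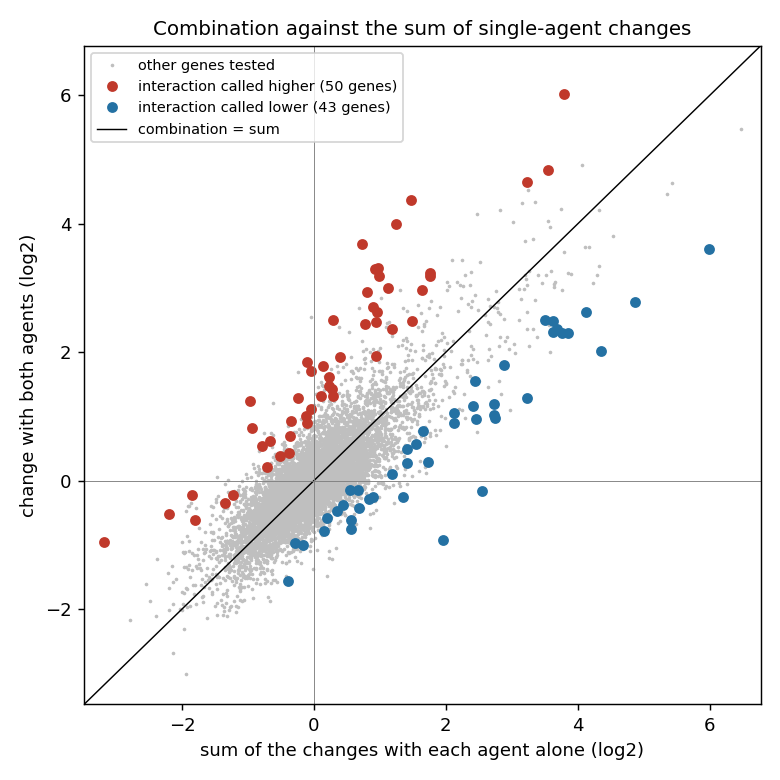
Each point is a gene: the horizontal axis gives the sum of the log2 changes with decitabine alone and panobinostat alone, the vertical axis the log2 change with both agents, all against control (means of 3 arrays). The 50 genes called higher (red) lie above the line of additivity, mostly at sums below 2, and the 43 called lower (blue) lie below it, many at sums between 2 and 6.

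Genes that stood above both agents and their sum were mostly low in untreated cells. In the 44 genes the median control level was 3.75, at the low end of the scale. Near 3.8 a level cannot be told from background and folds are compressed, which also affects the single changes and their sum. How far this adds to the interactions was not tested. Neither agent alone was called in 28 of the 50 higher genes, decitabine alone in 13, panobinostat alone in 4 and both in 5. Over all genes 3.96% were called with decitabine and 7.39% with panobinostat, so most genes were called with neither. In 41 of the 50 the 3 combination arrays read above all 9 other arrays, a pattern found in 5.77% of all genes. The combination was called above decitabine in all 44 genes (15.6% of all genes differed in that comparison) and above panobinostat in 43 (9.55% of all genes differed). These genes were selected for a high combination level. Such counts are therefore largely fixed by the selection, describe the shape only and are no separate evidence. Against control, 42 of the 44 rose past the test (11.2% of all genes did), and OOEP and ELAPOR1 did not.

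CXCL11, an interferon-inducible chemokine that draws T cells through the receptor CXCR3, had the highest interaction (probe set 16977058). It read 3.38, 3.86 and 3.56 in control, 5.00, 4.31 and 3.90 with decitabine, 3.32, 3.76 and 3.48 with panobinostat, and 7.98, 6.99 and 6.89 with both. The 3 combination arrays were high and overlapped no other group, and the decitabine arrays began just above control. Its change with both agents was 3.68 ± 0.31 (SE), a 12.8-fold rise, against a sum of 0.72, and the interaction was 2.96 ± 0.44 (adjusted p = 0.00462). With 1 array left out the adjusted p stayed at or below 0.0179.

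DHRS2, a short-chain dehydrogenase/reductase known for its strong response to deacetylase inhibitors, came next (16782385). Its levels were 3.61, 3.86 and 3.89 in control, 4.43, 3.86 and 4.06 with decitabine, 4.72, 5.00 and 5.10 with panobinostat, and 8.38, 7.98 and 8.10 with both. The panobinostat arrays lay above control without overlap, although that change of 1.15 did not pass the test (adjusted p = 0.134), and the combination arrays lay higher again. The combination rose 20.6-fold, by 4.37 ± 0.43 where the sum was 1.48, for an interaction of 2.89 ± 0.61 (adjusted p = 0.0424). The call was lost whichever 1 of the 12 arrays was left out (adjusted p 0.0614 to 0.106) and with the replicate number as a block (0.0627), while the interaction itself stayed between 2.76 and 3.05.

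BCAS1, a gene of myelin-forming cells that was first found amplified in breast cancer, passed the test with decitabine alone and not with panobinostat alone (16920475). It stood at 3.43, 3.42 and 3.50 in control, 4.29, 5.02 and 5.17 with decitabine, 3.34, 3.22 and 3.39 with panobinostat, and 7.36, 7.16 and 7.84 with both. Each step from control to decitabine to the combination was free of overlap. The interaction was 2.76 ± 0.51 (adjusted p = 0.0183), and the call was lost without control array 2 (adjusted p 0.0503), control array 3 (0.0523), decitabine array 1 (0.0521) or combination array 3 (0.058). TJP3, a scaffold protein of tight junctions (16857021), read 3.98, 3.81 and 4.10 in control, 3.87, 4.13 and 4.26 with decitabine, 4.68, 4.30 and 5.35 with panobinostat, and 7.01, 7.09 and 7.70 with both. Only the combination was called against control (3.30 ± 0.31, 9.85-fold). Its interaction of 2.37 ± 0.44 (adjusted p = 0.0194) missed the threshold without control array 3 (0.0555), decitabine array 1 (0.0567), combination array 3 (0.058) or panobinostat array 1 (0.0529).

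**Figure D2:**
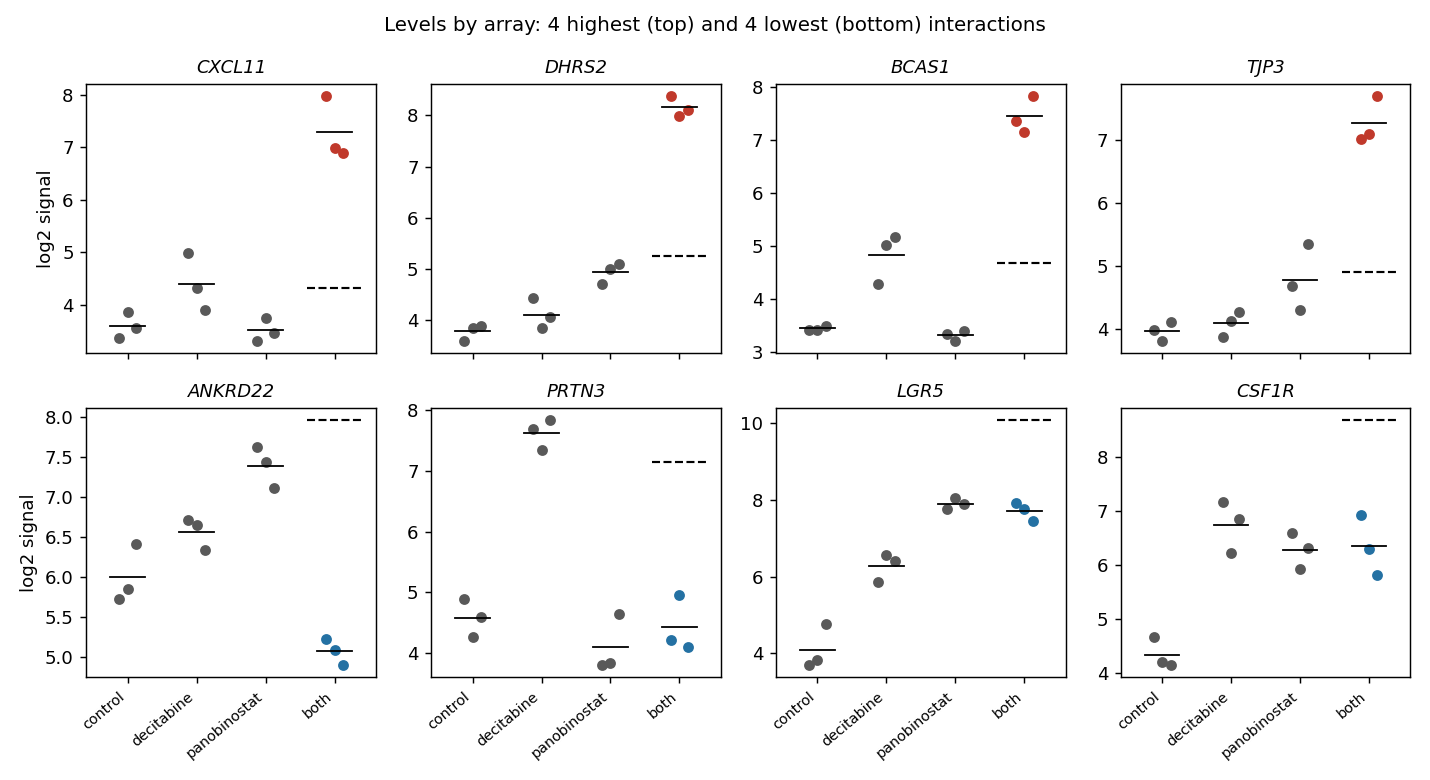
Log2 signal of the 4 genes with the highest interaction (top) and the 4 with the lowest (bottom), 1 point per array and a bar at each group's mean of 3 arrays. The dashed line over the combination is the level at which the 2 single changes would add: the red points of CXCL11, DHRS2, BCAS1 and TJP3 sit above it, and the blue points of ANKRD22, PRTN3, LGR5 and CSF1R sit below it.

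DPPA3, a factor of germ cells and the early embryo that guards DNA methylation there (16747822), read 3.33, 3.52 and 3.35 in control, 4.95, 4.06 and 4.01 with decitabine, 3.58, 3.51 and 3.23 with panobinostat, and 7.02, 6.65 and 6.49 with both. Its interaction was 2.35 ± 0.35 (adjusted p = 0.00462), called in each of the 12 fits with an array left out. HSPA2, a heat shock protein of the HSP70 family that is abundant in the testis (16785379), had the smallest p of all genes. It stood at 3.71, 3.71 and 4.13 in control, 4.53, 4.30 and 4.38 with decitabine, 3.64, 3.46 and 3.62 with panobinostat, and 6.37, 6.10 and 6.56 with both. The panobinostat arrays were the lowest of the 4 groups and the combination arrays the highest, with an interaction of 2.22 ± 0.21 (adjusted p = 0.000193). TKTL1, a transketolase-like gene of the X chromosome (17108264), is the gene of the higher set with the largest change by decitabine alone. Levels of 3.13, 3.45 and 3.37 in control and 3.30, 3.44 and 3.26 with panobinostat stood against 7.62, 6.52 and 7.14 with decitabine and 9.56, 8.96 and 9.49 with both. Panobinostat arrays alone overlapped control, and added to decitabine it raised the level by 2.24 ± 0.34. The combination was 64.9-fold above control, and the interaction of 2.23 ± 0.48 passed narrowly (adjusted p = 0.0471). That call was lost with the replicate block (0.0622) and when any of 10 arrays was left out (up to 0.114), all except decitabine array 1 and combination array 2. Of the 20 germline genes measured from a list of genes under promoter methylation, TKTL1 alone had a called interaction (0.336% of all genes were called higher). The combination raised 11 of the 20 against control, where 11.2% of all genes rose. The median interaction was 0.21 against −0.0049 over all genes. MAEL (3.54 with decitabine, 3.96 with both) and HORMAD1 (3.48 and 3.04) show members of that list on which panobinostat added little or nothing, with interactions of 0.38 and −0.20 that were not called.

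ZNF280A, a zinc finger gene (16932923), was low in control at 3.21, 3.28 and 3.11, and read 3.88, 3.91 and 4.09 with decitabine, 3.35, 3.50 and 3.45 with panobinostat and 6.37, 6.06 and 6.72 with both. No group overlapped another, and the interaction was 2.19 ± 0.31 (adjusted p = 0.00385). RGS16, which shortens signals from G protein-coupled receptors (16697018), differed in shape: it was lower with decitabine (4.44, 5.01 and 4.87) than in control (5.54, 5.60 and 5.72), although not past the test, and panobinostat arrays (5.57, 5.89 and 5.06) overlapped control. With both agents it rose to 7.30, 6.93 and 6.36, and the interaction was 2.20 ± 0.36 (adjusted p = 0.00933). Further genes of the same shape, chosen after their values were seen, include 3 membrane proteins that neither agent moved past the test alone. S1PR1, a receptor for sphingosine 1-phosphate, read 3.07, 3.29 and 3.42 in control and 5.04, 4.77 and 5.10 with both agents (interaction 1.75 ± 0.18, adjusted p = 0.000257). GPR15, a chemoattractant receptor, went from 3.26, 3.18 and 3.25 to 4.81, 4.77 and 4.96 (1.40 ± 0.17, 0.00116), and CD9, a tetraspanin, from 3.70, 3.62 and 3.42 to 5.97, 5.24 and 5.30 (1.52 ± 0.26, 0.0103). PPARG, a nuclear receptor of fat and macrophage gene programs, had a higher level in control (5.75, 6.46 and 6.34) and read 7.63, 8.12 and 8.34 with both. Its interaction of 1.96 ± 0.41 (0.0368) lost its call when any of 9 arrays was left out (up to 0.11). RANBP2 (1.27 ± 0.17) and RGPD8 (0.99 ± 0.17) are near-identical copies whose probes may share signal, and CLDN10 (1.81 ± 0.36) overlaps its antisense gene CLDN10-AS1 (1.66 ± 0.21), so neither pair is counted as independent evidence. ECSCR has 2 probe sets, with an interaction of 1.54 on the one that was called and 0.96 on the other. The calls of CLDN10 and ECSCR were lost without any of 9 and 8 arrays (up to 0.0861 and 0.0826).

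Interferon-induced effectors are antiviral genes that cells switch on when interferon binds its receptor or when foreign nucleic acid is sensed. Of 24 measured, 17 rose with the combination against control, where 11.2% of all genes rose, and IFITM2 fell. The interaction was called in 3, all higher (0.336% of all genes), and its median was 0.33 against −0.0049 over all genes. The median changes were 0.15 with decitabine, 0.21 with panobinostat and 0.88 with both. Averaged over the 24 genes, the arrays read 6.52, 6.53 and 6.40 in control, 6.88, 6.82 and 6.85 with decitabine, 6.84, 6.86 and 6.73 with panobinostat, and 7.59, 7.40 and 7.59 with both. Each single agent lay above control, and the combination above each, with no overlap. IFI44L (16666485) read 3.56, 3.58 and 3.87 in control, 4.97, 4.19 and 4.93 with decitabine, 3.71, 3.85 and 3.76 with panobinostat and 6.97, 5.93 and 7.10 with both, a 7.98-fold rise. Its interaction was 1.87 ± 0.36 (adjusted p = 0.0262). OASL, which helps the RNA sensor RIG-I (16771417), read 4.71, 4.43 and 4.43 in control, 4.43, 4.53 and 4.36 with decitabine, 4.63, 5.06 and 4.83 with panobinostat and 6.00, 5.78 and 6.22 with both. The interaction of 1.24 ± 0.21 (adjusted p = 0.00992) held without any 1 array. XAF1, an interferon-induced partner of the apoptosis inhibitor XIAP (16830202), was the member well expressed at the start: 8.22, 7.92 and 8.15 in control, 7.93, 8.31 and 7.61 with decitabine, 7.44, 7.88 and 7.42 with panobinostat, and 8.99, 8.63 and 8.54 with both. Its interaction was 1.28 ± 0.27 (adjusted p = 0.0399). XAF1 lost its call when any of 10 arrays was left out (up to 0.107), all except decitabine array 2 and panobinostat array 2, and with the array medians subtracted (0.0537) or only the 12 arrays fitted (0.0535). IFI44L lost it without any of 7 arrays (control 2 and 3, decitabine 2, combination 1 and 3, panobinostat 1 and 3, up to 0.0726) or with only the 12 arrays fitted (0.0525).

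Other effectors had estimates above 0 that did not pass, such as ISG15 (1.10, adjusted p = 0.221), IFIT1 (1.13, 0.527) and RSAD2 (0.95, 0.27), while IFIT5 (2.36 with decitabine and 2.83 with both) and SLFN5 (2.41 with panobinostat and 2.99 with both) followed 1 agent. Upstream of them, 0 of 23 nucleic acid sensors and interferon signaling genes had a called interaction (0.625% of all genes did), with a median of 0.11. The combination nevertheless rose above control in IRF9 (2.80), RIGI (2.22), IRF7 (1.51) and IFIH1 (1.35), whose interactions of 1.03, 0.83, 1.10 and 0.85 were not called.

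Single members of other lists also stood above the sum. TREM1, a myeloid receptor that amplifies inflammatory signals (17019056), read 3.58, 3.85 and 3.92 in control, 4.63, 4.49 and 4.13 with decitabine, 4.93, 4.93 and 4.84 with panobinostat and 7.02, 7.01 and 7.00 with both, an interaction of 1.48 ± 0.25 (adjusted p = 0.0114). All 4 groups were free of overlap. MT1H, a metal-binding metallothionein (16819257), rose with decitabine (7.15, 6.75 and 7.22 against 4.80, 4.72 and 4.81) and stood at 4.20, 4.52 and 4.10 with panobinostat and 7.96, 8.06 and 7.86 with both (1.43 ± 0.25, 0.0114). The other 9 metallothioneins measured were not called (0.625% of all genes were), and the family shares much sequence. CD24, a surface glycoprotein of early B cells among others (17117110), rose with each agent (5.93, 5.76 and 5.92 with decitabine, 5.82, 5.52 and 5.45 with panobinostat, against 4.95, 5.10 and 4.93) and read 7.79, 7.27 and 7.40 with both. Its interaction was 1.01 ± 0.20 (adjusted p = 0.0305) and lost its call without any of 10 arrays (up to 0.0902) and with a trended robust prior (0.104).

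In 6 of the higher genes the combination stood below control by less than the sum of the single falls. ZNF32, a zinc finger gene (16713498), had the highest such interaction. It read 6.27, 6.32 and 6.64 in control, 4.26, 5.21 and 4.52 with decitabine, 5.20, 4.68 and 5.03 with panobinostat and 5.12, 5.38 and 5.87 with both. All treated arrays lay below control, and the combination began within the range of the single agents and reached above it: the fall of 0.95 with both compared with a sum of −3.18 (interaction 2.23 ± 0.40, adjusted p = 0.0149, and 0.0511 without control array 3). ASNS, the asparagine synthetase that the amino acid response induces (17060061), fell with decitabine (6.84, 6.95 and 6.41) and with panobinostat (6.95, 7.35 and 6.71) from 7.61, 8.18 and 7.59 in control. With both it read 7.83, 7.42 and 7.47, which overlaps control (interaction 1.63 ± 0.27, adjusted p = 0.00936). Chosen after their values were seen, NFIX, a transcription factor, and ULBP1, a ligand that marks stressed cells for NK cells, fell with panobinostat alone (by 1.69 and by 1.26) and not when decitabine was present (−0.52 and −0.35 against control, neither called). NFIX lost its call without any of 10 arrays (up to 0.0842), and ULBP1 without any of 9 (up to 0.0802), with only the 12 arrays fitted (0.0506) or with a trended robust prior (0.055). PHC3, a Polycomb subunit, and the transcription factor ONECUT2 complete the 6.

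Among the 43 genes lower than additive, 26 stood above control with the combination by less than the sum, 16 lay below both agents and the sum, and 1 had neither shape. Both agents alone were called in 21 of the 43, where 3.96% of all genes were called with decitabine and 7.39% with panobinostat. The single changes enter the interaction with a minus sign, so that count follows in part from the selection. The median control level of the 43 was 7.06. Of the 26, 18 had a combination estimate no higher than the larger single change and 8 lay between it and the sum. The combination was called different from neither single agent in 9 of them and above both in 2.

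LGR5, a receptor for R-spondins that marks stem cells of the gut (16754134), had the largest sum of the called genes. It read 3.71, 3.82 and 4.76 in control, 5.87, 6.57 and 6.42 with decitabine, 7.76, 8.04 and 7.89 with panobinostat, and 7.92, 7.77 and 7.45 with both. The combination overlapped panobinostat alone, and the sum of 5.99 compared with a change of 3.62 ± 0.24. The interaction was −2.37 ± 0.34 (adjusted p = 0.0041). GLIPR1, a member of the cysteine-rich secretory protein family (16754373), had the same form at a higher level: 7.74, 7.25 and 7.16 in control, 9.54, 9.14 and 9.21 with decitabine, 10.23, 10.53 and 10.24 with panobinostat and 10.15, 10.20 and 10.15 with both (−2.08 ± 0.31, 0.00462). The combination differed from panobinostat alone by −0.18 ± 0.24 in LGR5 and −0.17 ± 0.22 in GLIPR1, neither called.

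The list of monocyte and macrophage markers held 3 genes that rose with each agent and with both by less than the sum, CSF1R, CD86 and TYROBP. CSF1R, the receptor for macrophage colony-stimulating factor (17001545), read 4.66, 4.20 and 4.15 in control, 7.17, 6.23 and 6.86 with decitabine, 6.59, 5.93 and 6.31 with panobinostat and 6.92, 6.30 and 5.82 with both. All 3 treated groups overlapped and none overlapped control. The interaction was −2.34 ± 0.42 (adjusted p = 0.0151, 0.0525 without control array 2 and 0.0523 without control array 3). CD86, a ligand that costimulates T cells (16944618), read 5.01, 5.50 and 4.74 in control, 7.00, 7.14 and 7.43 with decitabine, 6.75, 6.91 and 6.81 with panobinostat and 7.30, 7.42 and 7.42 with both, which overlapped decitabine (−1.55 ± 0.26, 0.00992). TYROBP, the adaptor known as DAP12 through which TREM1 signals (16871546), read 7.97, 7.67 and 7.86 in control, 10.83, 10.55 and 10.86 with decitabine, 8.89, 8.63 and 8.32 with panobinostat and 10.48, 10.24 and 9.88 with both. Here the combination lay below decitabine alone without overlap (by −0.55 ± 0.17, adjusted p = 0.0374), and the interaction was −1.32 ± 0.24 (0.0151, and 0.0554 without control array 2). Over the 21 monocyte and macrophage markers measured, 3 interactions were lower (0.289% of all genes), 1 was higher (TREM1; 0.336%) and 17 were not called, with a median of −0.08. LYZ, the lysozyme of monocytes, had an interaction of −1.14 ± 0.27 that missed the threshold (adjusted p = 0.0721), and passed it with a trended robust prior (0.0322), the mean of its 2 probe sets (0.0226) or without combination array 2 (0.0391). HCST, the adaptor DAP10, was chosen after its values were seen: it read 8.54, 8.42 and 8.56 in control, 9.67, 9.90 and 10.21 with decitabine, 9.57, 9.64 and 9.46 with panobinostat and 9.53, 9.57 and 9.29 with both (−1.51 ± 0.19, 0.00158).

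BMP2, a bone morphogenetic protein, CXCR4, the receptor for the chemokine CXCL12, and HOMER2, a scaffold of glutamate receptors, had combination estimates below the larger single change. BMP2 (16911261) read 6.04, 5.77 and 6.07 in control, 6.96, 6.55 and 6.56 with decitabine, 8.65, 8.70 and 8.06 with panobinostat and 7.54, 7.28 and 6.94 with both. The combination lay below panobinostat alone without overlap, by −1.21 ± 0.19 (adjusted p = 0.000569), and the interaction was −1.94 ± 0.26 (0.00305). CXCR4 (16903140) read 8.38, 8.85 and 8.83 in control, 9.87, 9.93 and 9.35 with decitabine, 10.51, 10.46 and 10.24 with panobinostat and 10.01, 9.64 and 9.33 with both, so the combination overlapped decitabine alone. Its interaction of −1.77 ± 0.35 (0.028) lost its call without any of 9 arrays (up to 0.0798). HOMER2 (16812685) read 4.10, 3.80 and 4.25 in control, 6.04, 6.28 and 6.27 with decitabine, 4.45, 4.94 and 4.52 with panobinostat and 5.13, 5.12 and 4.97 with both. Panobinostat thus took the decitabine level down by 1.12 ± 0.24, to an interaction of −1.71 ± 0.34 (0.0271, lost without any of 7 arrays, up to 0.0802). Among genes chosen after their values were seen, the cytoskeletal genes VIM (−1.49 ± 0.22) and TPM4 (−1.01 ± 0.14) rose with the combination by 2.63 and 2.50, short of their sums of 4.12 and 3.51. The other 2 probe sets of VIM gave −0.76 and −0.82, neither called, and the mean over its probe sets was not called (adjusted p = 0.104). NCF1C and ANXA2P2 are pseudogenes with expressed near-identical parents, so their values (−1.47 and −1.15) may include those parents. The call of NCF1C was lost without any of 9 arrays (up to 0.0855).

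In PRTN3, TSPAN8 and DSC3 a rise that passed the test with 1 agent alone did not pass it with both. PRTN3, proteinase 3 of myeloid granules (16856284), read 4.89, 4.26 and 4.59 in control, 7.69, 7.34 and 7.83 with decitabine, 3.81, 3.85 and 4.65 with panobinostat and 4.22, 4.96 and 4.10 with both. The rise of 3.04 ± 0.28 with decitabine was gone with panobinostat present, where the arrays overlapped control. The interaction was −2.71 ± 0.39 (adjusted p = 0.0041), called whichever array was left out. Of 12 granulocyte genes measured it was the single one called (0.289% of all genes were called lower). The related granule genes AZU1 and CTSG changed less with decitabine (0.98 and 0.55) and had interactions of −0.70 and −0.65 that were not called. TSPAN8, a tetraspanin of epithelia (16767513), had the reverse dependence: panobinostat raised it to 5.21, 5.48 and 5.41 from 4.04, 3.78 and 3.67, and it read 3.70, 3.64 and 3.59 with decitabine and 3.55, 3.59 and 3.56 with both (−1.61 ± 0.19, 0.00116). DSC3, a desmosomal cadherin of epithelia (16854466), rose with panobinostat to 4.92, 4.69 and 5.02 from 3.61, 3.31 and 3.58, and read 3.63, 3.35 and 3.62 with decitabine and 3.83, 3.85 and 3.64 with both (−1.13 ± 0.17, 0.00462). These were the 2 called members of 14 epithelial and stromal genes measured (0.289% of all genes were called lower), whose median interaction was 0.03.

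ANKRD22, an ankyrin-repeat protein (16716341), had the lowest interaction of all. It read 5.73, 5.86 and 6.41 in control, 6.72, 6.65 and 6.34 with decitabine, 7.63, 7.44 and 7.11 with panobinostat, and 5.23, 5.09 and 4.91 with both. The combination arrays lay below all 9 others, although the change of −0.92 against control did not pass the test (adjusted p = 0.105). The interaction of −2.88 ± 0.55 (adjusted p = 0.0213) missed the threshold without any of 6 arrays, control 1 and 2, decitabine 1 and 2, combination 3 and panobinostat 1 (up to 0.0651). Of the 16 genes that lay below both agents and the sum, 14 were called below each agent. In 9 of the 16 the combination arrays lay below all 9 others, as in 5.46% of all genes. The 16 were sorted by a low combination level, so both counts largely follow from that choice. Chosen after their values were seen, CD180 and LY86, which form a complex on B cells and myeloid cells that tunes responses to bacterial lipid, both fell. CD180 read 10.30, 10.24 and 10.29 in control, 9.86, 9.90 and 9.60 with decitabine, 10.33, 10.49 and 10.30 with panobinostat and 8.76, 8.94 and 8.44 with both (−1.17 ± 0.25, adjusted p = 0.0477, lost without any of 11 arrays, up to 0.117). LY86 read 10.18, 10.20 and 9.87, then 10.24, 10.29 and 10.30, then 10.51, 10.26 and 10.57, and 9.41, 9.70 and 9.30 with both (−1.17 ± 0.25, 0.042, lost without any of 10 arrays, up to 0.11). ALOX5AP, which feeds leukotriene synthesis, and GPX1, a glutathione peroxidase, had interactions of −0.82 ± 0.15 and −0.79 ± 0.16. ALOX5AP lost its call without any of 5 arrays (up to 0.0641), and GPX1 without any of 10 (up to 0.0944) or with a trended robust prior (0.0522).

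All 18 genes of DNA replication measured fell with the combination, as did 1779 of the 14884 genes tested. Their averaged level was 10.07, 10.03 and 10.11 in control, 10.12, 10.11 and 10.15 with decitabine, 9.79, 9.85 and 9.78 with panobinostat and 9.32, 9.40 and 9.40 with both. The decitabine arrays lay just above control, and the combination lay below panobinostat without overlap. Every one of the 18 interactions was below 0, with a median of −0.50 against −0.0049 over all genes, yet 1 passed the test (0.289% of all genes were called lower). That gene was RRM2, the small subunit of ribonucleotide reductase, which makes deoxynucleotides (16877019): it read 9.55, 9.51 and 9.58 in control, 9.63, 9.84 and 9.76 with decitabine, 9.46, 9.57 and 9.48 with panobinostat and 8.57, 9.09 and 8.61 with both. Neither agent alone moved it past the test, the combination fell by 0.79 ± 0.13, and the interaction was −0.95 ± 0.18 (adjusted p = 0.0198, lost without any of 6 arrays, up to 0.0627). GINS3 of the replicative helicase complex (−0.85, adjusted p = 0.23) and TYMS, thymidylate synthase (−0.77, 0.164), came next. Genes of G2 and mitosis had a median interaction of −0.16 with 0 of 22 called (0.625% of all genes were).

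MYC, a growth-promoting transcription factor, and 13 genes that it drives or that build ribosomes all fell with the combination (1779 of all 14884 genes did), at a median of −1.26. Of their interactions 0 were called (0.625% of all genes were), and the median was −0.22. MYC itself read 10.74, 10.61 and 10.79 in control, 9.77, 9.80 and 9.55 with decitabine, 9.99, 9.85 and 10.18 with panobinostat and 9.19, 9.32 and 8.76 with both. Each group was free of overlap with the next, the fall of 1.63 with both compared with a sum of −1.72, and the interaction was 0.09 with a 95% interval of −0.57 to 0.75.

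**Figure D3:**
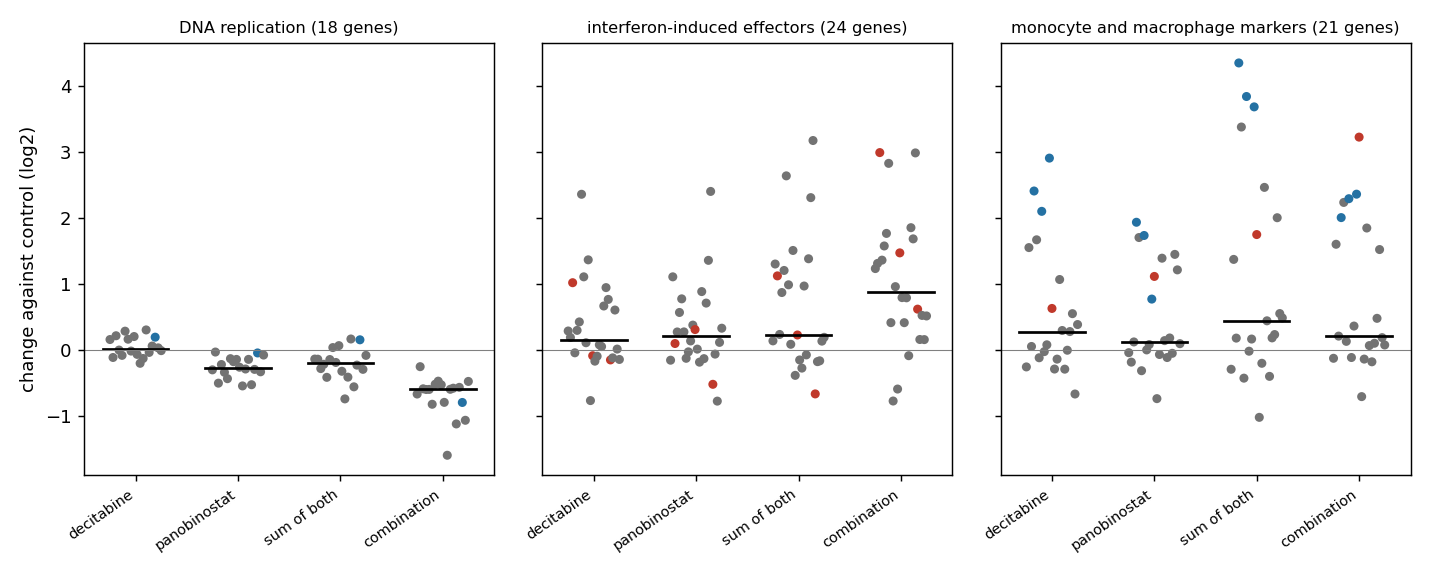
Log2 change against control of each measured gene of 3 lists with decitabine, with panobinostat, as the sum of both, and with the combination, with a bar at the median. Genes whose interaction was called higher are red and those called lower are blue: the 18 replication genes fall to a median of −0.59 with the combination, the 24 interferon-induced genes rise to 0.88, and the 3 monocyte genes called lower sit below their sums.

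The remaining lists held few calls, and 0.625% of all genes were called in either direction. At that share, 0 calls in a list of this size do not set it apart from other genes. T and NK cell genes had the highest median of the lists with more than 10 genes measured (0.40) with 0 of 13 called. PRF1, the pore protein perforin, rose 4.91 with the combination and had an interaction of 0.84 (adjusted p = 0.427), LAT had 1.16 (0.104) and NKG7 −1.58 (0.131). CXCL11 was the single call among 19 genes of NF-kB and inflammatory cytokines, ASNS among 9 of the integrated stress and unfolded protein responses, and CD24 among 9 B cell genes. No interaction was called among 14 genes of DNA methylation and decitabine handling, 24 histone deacetylases and acetyltransferases, 4 cancer-testis antigens, 5 genes of MHC class I presentation, 13 stem and progenitor genes, 6 megakaryocyte genes, 10 neuronal genes, 6 cell cycle inhibitors, 17 genes of cell death, 8 heat shock chaperones (a list without HSPA2), 10 genes of cholesterol synthesis or 15 lysosomal genes.

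No target of the drugs named here had a called interaction, as for most genes (0.625% of all were called). DNMT1, the methyltransferase that decitabine traps, read 10.79, 10.71 and 10.94 in control and 10.50, 10.80 and 10.68 with both, with an interaction of −0.39 (95% interval −0.70 to −0.07, adjusted p = 0.346). DNMT3B, a de novo methyltransferase, was higher with decitabine (8.01, 7.78 and 7.67) than in control (6.70, 6.93 and 7.36) and read 7.82, 8.42 and 8.45 with both, with an interaction of 0.60 (0.03 to 1.16, adjusted p = 0.441). DNMT3A gave −0.65 (−1.71 to 0.41) and UHRF1, which guides DNMT1 to new strands, −0.26 (−0.67 to 0.15). Among deacetylases, HDAC1 gave 0.28, HDAC2 −0.37, HDAC3 0.13, HDAC6 0.09 and HDAC11 0.36, none called. HDAC9 rose with each agent (5.09, 5.14 and 4.78 in control, 6.07, 5.80 and 6.13 with decitabine, 6.76, 7.07 and 6.72 with panobinostat) and read 6.11, 6.04 and 6.94 with both. Its interaction of −1.49 ± 0.38 was not called (adjusted p = 0.105), but passed with only the 12 arrays fitted (0.0488) and without combination array 3 (0.0403). CD34, the progenitor surface marker, rose from 4.49, 4.16 and 4.31 to between 8.92 and 9.22 with decitabine and 9.89, 9.73 and 9.77 with both, 44.6-fold, with an interaction of −0.99 (−1.84 to −0.14, adjusted p = 0.376).

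The second deacetylase inhibitor, valproic acid, is a branched short-chain fatty acid. Its interaction with decitabine uses the same control and decitabine arrays, so the values of both interactions are not independent and are set side by side without a measure of likeness. It was called in 9 genes (0.0605%), 2 higher and 7 lower. An unadjusted p under 0.05, which some genes reach by chance alone, was found in 1149 of the 14884 genes. Of the 9, 7 were also called with panobinostat (7 of 93): HSPA2 (1.82 with valproic acid, 2.22 with panobinostat), LGR5 (−2.53 and −2.37), GLIPR1 (−2.19 and −2.08), VNN1 (−1.37 and −1.43), ANXA2P2 (−1.22 and −1.15), TPM4 (−0.93 and −1.01) and LPXN (−0.81 and −0.89). MTMR11 (1.22) and SP110 (−1.23) were called in the interaction of decitabine with valproic acid and not in that with panobinostat. Over the 50 higher genes the median interaction was 1.45 with panobinostat and 0.81 with valproic acid, and over the 43 lower genes −1.17 and −0.82. These genes were selected on the panobinostat value.

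**Figure D4:**
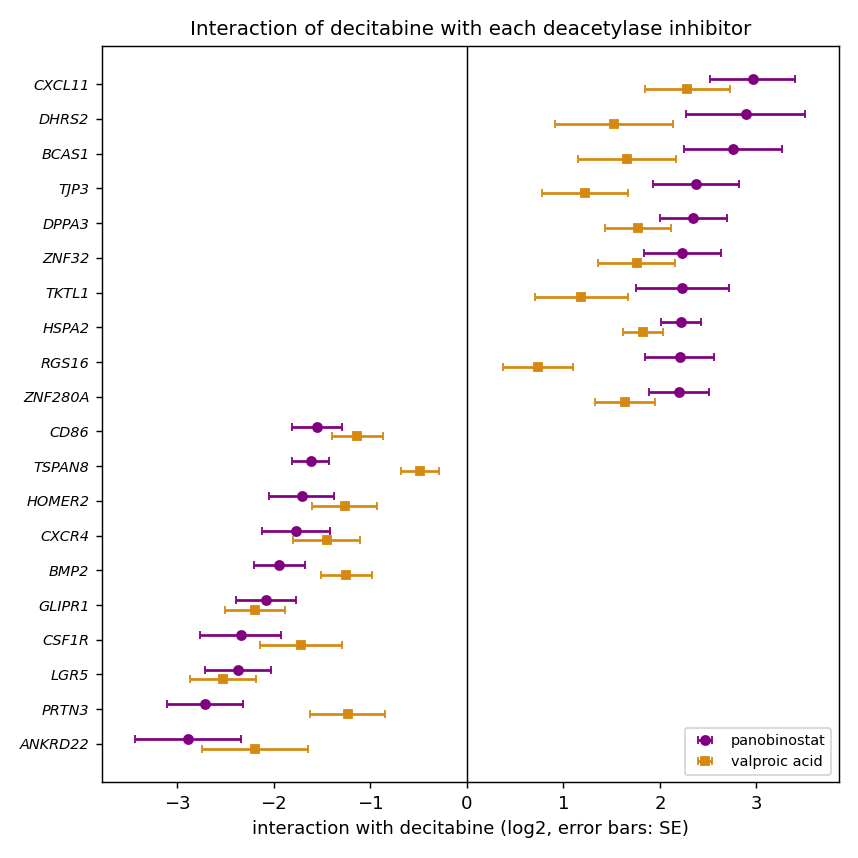
Interaction with decitabine (log2, error bars SE, 3 arrays a group) of panobinostat (circles) and valproic acid (squares) for the 10 highest and 10 lowest called genes. The circles lie farther from 0 for all shown except LGR5 and GLIPR1, with a wide gap for TSPAN8 (−1.61 against −0.48).

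The difference between both interactions, in which control and decitabine arrays cancel, was called in 0 genes (0%; limma, lowest adjusted p 0.0716, for ATRIP, chosen after its values were seen). Of the 14884 genes, 995 had an unadjusted p under 0.05 for this difference, which some genes reach by chance alone. Among them were 50 of the 93. The 93 were selected on the panobinostat interaction, which uses the same combination and panobinostat arrays. That count of 50 is therefore raised by the selection and is no separate evidence. TSPAN8 differed by −1.13 (95% interval −1.54 to −0.72, adjusted p = 0.122): valproic acid alone gave 4.22, 4.51 and 4.41 where panobinostat gave 5.21, 5.48 and 5.41, and with decitabine the level was low with either inhibitor (3.42, 3.73 and 3.98 with valproic acid). GPR15 differed by 0.98 (0.63 to 1.34, 0.122) and TREM1 by 1.25 (0.72 to 1.79, 0.267), each with lower levels when valproic acid was the partner (3.63, 4.19 and 3.97 for GPR15, 5.32, 6.23 and 5.88 for TREM1). For LGR5 the difference was 0.16 (−0.57 to 0.88) and for HSPA2 0.39 (−0.05 to 0.84). The doses of the inhibitors are given by label number alone and are not matched, so these values compare the treatments as given. With 1 array left out, 0 to 4 genes were called: ATRIP, IFI44L, KRTAP5-10 and UNC119 without combination array 2, ATRIP, GPR15, HECTD2 and TREM1 without array 2 of decitabine with valproic acid, TSPAN8 without array 1 of that group and ATRIP without valproic acid array 2.

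The 2 directions differed in where the genes started. The median control level was 4.53 over all genes, 3.83 over the 50 higher genes and 7.06 over the 43 lower genes, and 34 of the 50 (68%) but 6 of the 43 (14%) started below 4.53. The control level enters the interaction with a plus sign, so this is a description with no test. Promoter CpG content was lower than the overall median of 18 in both sets, at 13 for the higher and 9 for the lower genes, with a GC content of 62.8% over all promoters, 58.4% and 57%. Motifs were searched on both strands after the values were seen. TATAAA occurred in 8 of 41 promoters of the higher genes (19.5%), in 1 of 36 of the lower genes (2.78%) and in 8.14% of all, and the printed promoters of CXCL11 and DHRS2 are among the 8. GGGCGG occurred in 56.1%, 44.4% and 57.8%.

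**Figure D5:**
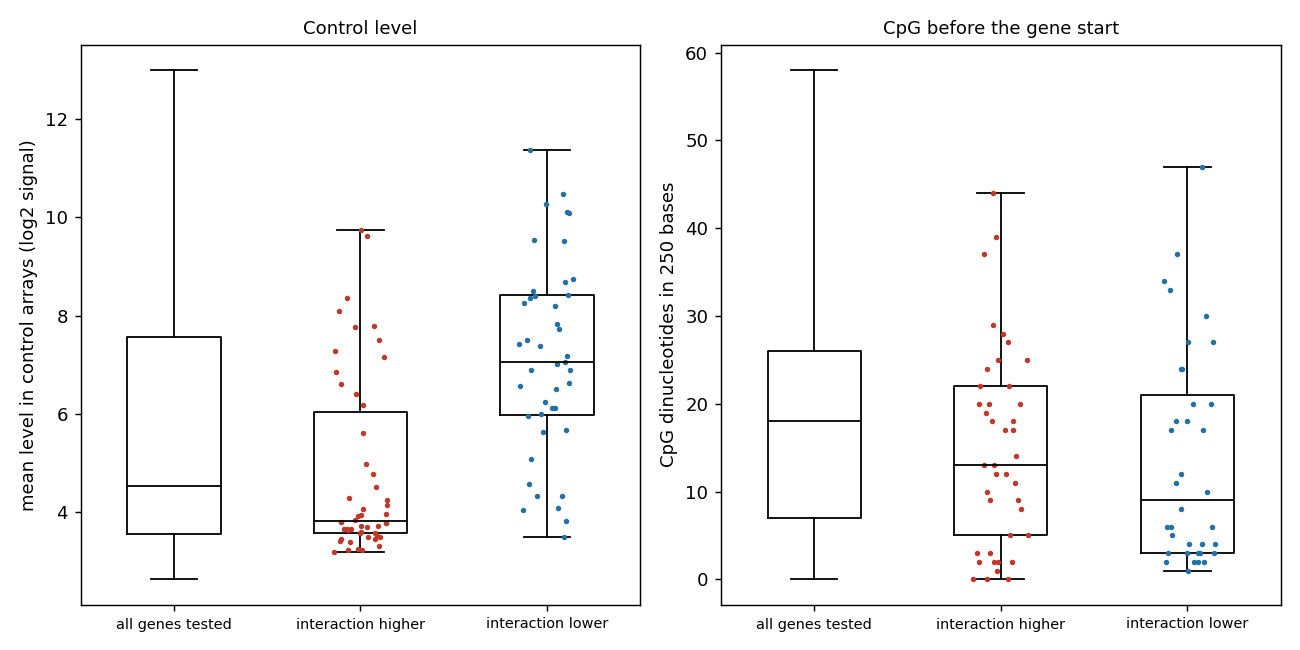
Left, mean log2 level in the 3 control arrays of all 14884 genes, the 50 called higher (red) and the 43 called lower (blue). Right, CG dinucleotides in the 250 bases before the gene start for those with an entry. Boxes span the quartiles with the median as a line, whiskers reach the lowest and highest gene, and points are genes. The higher genes have a median level of 3.83 (quartiles 3.58 and 6.04) and the lower genes 7.06 (5.98 and 8.42). Both medians of CpG (13 and 9) lie below 18.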

How the data were processed

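Total RNA of U937 cells was read on 18 Affymetrix arrays, 3 in each of 6 groups. The deposited table gives log2 values that the authors made with RMA, per the submitters' processing notes. The RMA version and annotation are not given in the sources used here. Of 48226 probe sets, 16098 had 1 gene symbol, 0 had several and 32128 had none. All 16098 matched RefSeq by gene identifier, and the probe set with the highest mean level stood for each of the 779 genes with more than 1, leaving 14884 genes.

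A mean per group was fitted to all 18 arrays with limma 3.58.1 in R 4.3.3 (lmFit, contrasts.fit, eBayes, 12 residual degrees of freedom), with p-values adjusted by Benjamini-Hochberg over all genes. A gene was called at an adjusted p under 0.05. The number of arrays limits the precision. The script was tested on simulated data with planted interactions. It called 9 of 67 planted at 1.5-fold, 44 of 67 at 2-fold and 60 of 66 at 4-fold, with 5 false calls among 118. A gene that was not called may thus still have an interaction of 1.5-fold or 2-fold. Same-numbered arrays of different groups did not deviate together (correlations of −0.057 to 0.073), so the numbers were not taken as pairs.

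The text names the 10 highest and 10 lowest called protein-coding interactions, up to 4 called members of each gene list, and 16 fixed genes. These make 43 in all. Apart from the cell type markers, other genes were chosen after their values were seen, and not all of them are marked so where they are named. The contrast, members and lists were chosen with earlier results of these data known. Alternatives were the 12 arrays alone, a replicate block, array medians subtracted, a filter on low levels, the mean of a gene's probe sets, a trended robust prior, array weights, the linear scale and each array left out.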

Additional observations from a re-analysis of the deposited data

Results flagged for a closer look

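Probe sets without a gene name were used in no comparison above. In the same limma fit over all 48226 probe sets, 134 of the 32128 unnamed ones (0.417%) had a called interaction of decitabine and panobinostat, 82 higher and 52 lower, with sizes up to 3.37 on the log2 scale. Among the 16098 named probe sets of that fit, 88 (0.547%) were called, 48 higher and 40 lower.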

How the results depend on the processing

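No called interaction changed sign under any alternative run. The count of 93 was 121 with only the 12 arrays, 111 with a trended robust prior, 104 with array weights, 94 with array medians subtracted (which moves all interactions by 0.04) or with the mean of probe sets, and 93 with low-level genes left out. With the replicate block 98 genes were called, 84 of them among the 93. Of the 93, 69 were called in all of these settings. With 1 array left out the count ran from 46 to 98, and that of interactions of at least 2-fold, 75 in all, from 40 (without control array 3) and 45 (without control array 2) to 83. The difference between both interactions gave 0 to 4 calls with an array left out and 0 with the replicate block. The block moved no count of calls by more than 1.5 times. Among genes not called, the sign of MYC (−0.023 to 0.25) and of HDAC6 (−0.028 to 0.29) turned with the array left out; the cause was not tested. Signal over background is not in the table, so it sets no limit that can be stated for low genes, and a median standard error of 0.22 limits what 3 arrays a group can show.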
